A study of Mus musculus with 7 samples.

Results

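Growth factors made by megakaryocyte progenitors (MkPs), the committed bone marrow precursors of platelet-producing megakaryocytes, were followed through the transcripts of 8 genes: Btc, Tgfb1, Vegfa, Vegfb, Vegfc, Angpt1, Pdgfa and Igf1. They are 8 of the 21615 genes in the count table, and 7 of the 16653 genes with enough counts to be tested. The genes were chosen by their symbols, as secreted factors, with the difference between the MkP subsets in these same libraries already known. Their values in this contrast are therefore a description. Where a call of one of them in the fit across all genes is mentioned, it places the gene among all genes and is no independent test.

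RNA was sequenced in bulk from 3 libraries of CD48-/lo MkPs and 4 libraries of CD48hi MkPs. The mice were C57BL/6, and every library was sorted from their bone marrow on the same gate (lin-, CD41+, CD150+, CD117+ and Sca-1-), so that the subsets differed only in the gate on surface CD48, and no transgene, deletion or treatment is labelled for any library. The labels give neither age nor sex, nor do they state that each library came from another mouse, and p-values thus cover the spread among the 7 libraries, which may be technical. The comparison addresses how MkPs that the study assigns to separate routes of platelet formation differ in their transcripts.

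Total counts were 48899037 to 51161449 in CD48-/lo libraries and 51537445 to 69324909 in CD48hi libraries. The CD48-/lo libraries came from 5348 to 6497 sorted cells and the CD48hi libraries from 14033 to 20826. Cell number and subset thus cannot be told apart. Mitochondrial transcripts took 2.61% and 2.91% of counts in CD48-/lo replicates 1 and 4, against 0.482% in CD48-/lo replicate 3 and 0.138% to 0.4% in CD48hi libraries. Megakaryocyte markers summed to 3184 to 5913 CPM (a gene's reads relative to the library total, scaled by TMM) in CD48-/lo MkPs and 3153 to 4408 CPM in CD48hi MkPs, and Cd48 itself averaged 10.1 ± 4.65 CPM in CD48-/lo MkPs and 28.9 ± 11.8 CPM in CD48hi MkPs (SD, n = 3 and 4). Markers of other blood cells differed between the subsets. Summed CPM of 12 monocyte and macrophage markers was 14.1 to 21.7 in CD48-/lo MkPs and 41.8 to 116 in CD48hi MkPs. For 10 neutrophil markers it was 46.8 to 142 in CD48-/lo MkPs and 372 to 543 in CD48hi MkPs, and for 6 basophil and mast cell markers 10.7 to 27.7 in CD48-/lo MkPs and 46.5 to 126 in CD48hi MkPs. For 10 stem cell markers it was 641 to 744 in CD48-/lo MkPs and 437 to 615 in CD48hi MkPs, and for 10 erythroid markers 177 to 320 in CD48-/lo MkPs and 158 to 249 in CD48hi MkPs. Of these markers, edgeR called Irf8, Ccr2, Mpo and Mcpt8 lower and Hba-a1, Hba-a2 and Rhd higher in CD48-/lo MkPs. Ccr2 had 2 counts over all CD48-/lo libraries and 647 over all CD48hi libraries, and Mcpt8 had 3 and 2947. Fitted differences were above 0 for 4 of the 12 monocyte and macrophage markers and below 0 for 8. Among the 6 basophil and mast cell markers 5 were below 0 and 1, Fcer1a, was above 0. Fcer1a averaged 10.6 ± 7.19 CPM in CD48-/lo MkPs and 4.94 ± 0.97 CPM in CD48hi MkPs (SD, n = 3 and 4). Of the 9 stem cell markers tested, 8 had fitted differences above 0 and 1, Mycn, below 0. Mycn was the highest stem cell marker in every library, at 360 ± 41.7 CPM in CD48-/lo MkPs and 385 ± 75.3 CPM in CD48hi MkPs (SD, n = 3 and 4). Of the 10 erythroid markers, 8 had fitted differences above 0 and 2 below 0. Those 2 had the highest means of that list. Klf1 averaged 75.5 ± 26.4 CPM in CD48-/lo MkPs and 123 ± 41.4 CPM in CD48hi MkPs (SD, n = 3 and 4). Epor averaged 47.2 ± 6.66 CPM in CD48-/lo MkPs and 65.5 ± 11.8 CPM in CD48hi MkPs. Among the neutrophil markers Mpo had the highest mean in both subsets, at 39.6 ± 20.6 CPM in CD48-/lo MkPs and 359 ± 93.9 CPM in CD48hi MkPs (SD, n = 3 and 4). Mpo made up most of the sum in every CD48hi library but in no CD48-/lo library. Fitted differences were above 0 for 4 of the 9 neutrophil markers tested, among them S100a8 at 8.53 ± 7.26 CPM in CD48-/lo MkPs and 1.21 ± 0.718 CPM in CD48hi MkPs. Stromal and endothelial markers summed to 23.7 to 34.8 CPM in CD48-/lo MkPs and 28.9 to 64.1 CPM in CD48hi MkPs. Kdr was the highest of them in every library. Within that list Emcn, at 5.67 ± 4.44 CPM in CD48-/lo MkPs and 0.835 ± 0.212 CPM in CD48hi MkPs, and Pdgfrb, given with the PDGF genes, ran in opposite directions. The part of other cells in the values below was not tested, and in bulk samples fewer cells of a type and less RNA per cell cannot be told apart.

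Growth factors of this kind act on neighbouring cells through receptor kinases. Betacellulin (Btc) is an EGF family ligand of ERBB receptors, VEGF and angiopoietin ligands act on vessel and stem cells, PDGF on mesenchymal cells, and IGF1 on many cell types. TGF-beta signals through receptor serine/threonine kinases and is secreted in a latent form that must be activated outside the cell. Megakaryocytes store several such factors in the granules of their platelets and are known in bone marrow as a niche cell from which TGF-beta reaches haematopoietic stem cells.

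The bases directly upstream of 3 of these genes are shown because they place the promoter of the most different gene, Btc, beside those of Vegfb, second to Angpt1 in level in both subsets, and Tgfb1, which lay below Btc in CD48-/lo MkPs and above it in CD48hi MkPs. Each line holds the 250 bases before the annotated start, 5′ to 3′ on the gene's strand, from RefSeq on GRCm38.p6 (mm10). The windows are chr5:91402995-91403244 on the minus strand for Btc, chr7:25686752-25687001 on the plus strand for Tgfb1 and chr19:6987652-6987901 on the minus strand for Vegfb. Capitals mark the core of the hypoxia response element, ACGTG or GCGTG on either strand. The GATA motifs AGATAA and TGATAA were also searched on both strands.
Btc: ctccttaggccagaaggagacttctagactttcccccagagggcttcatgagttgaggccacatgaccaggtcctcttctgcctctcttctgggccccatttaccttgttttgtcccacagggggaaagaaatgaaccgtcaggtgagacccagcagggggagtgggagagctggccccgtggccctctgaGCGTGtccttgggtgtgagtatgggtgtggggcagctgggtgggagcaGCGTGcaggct
Tgfb1: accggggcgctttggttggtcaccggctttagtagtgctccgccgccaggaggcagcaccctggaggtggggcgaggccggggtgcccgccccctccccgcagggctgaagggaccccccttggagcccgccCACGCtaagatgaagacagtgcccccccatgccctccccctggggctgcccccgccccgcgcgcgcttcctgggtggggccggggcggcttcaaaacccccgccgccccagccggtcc
Vegfb: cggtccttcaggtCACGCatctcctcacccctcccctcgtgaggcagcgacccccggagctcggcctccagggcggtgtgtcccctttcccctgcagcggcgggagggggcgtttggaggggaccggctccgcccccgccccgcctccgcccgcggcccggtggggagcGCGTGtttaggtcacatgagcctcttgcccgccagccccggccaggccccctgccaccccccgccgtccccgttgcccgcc

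RefSeq windows were found for 7 of the 8 genes. The Btc window held 2 hypoxia cores, Vegfb 2 and Tgfb1 1, and none of these 3 held a GATA motif, whereas the window at the first listed start of Vegfa held 1 GATA motif and 0 hypoxia cores, and that at its other listed start 0 GATA motifs and 2 hypoxia cores. Of 32851 promoter windows of the same length, 38.6% held a hypoxia core and 16.6% a GATA motif. GC content was 59.6% for Btc, 75.2% for Tgfb1 and 76.4% for Vegfb, against a median of 52.4% over all windows.

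Among the 8 transcripts, Angpt1 dominated both subsets and Btc showed the widest difference between them. By RPKM, which is CPM divided by gene length in kilobases, the mean order in CD48-/lo MkPs was Angpt1, Vegfb, Btc, Vegfc, Tgfb1, Vegfa, Igf1 and Pdgfa. In CD48hi MkPs it was Angpt1, Vegfb, Tgfb1, Vegfc, Btc, Vegfa, Igf1 and Pdgfa. In CD48-/lo MkPs the library ranges of Vegfc and Tgfb1, of Tgfb1 and Vegfa, and of Igf1 and Pdgfa overlapped. In CD48hi MkPs those of Tgfb1 and Vegfc, of Vegfc and Btc, of Btc and Vegfa, and of Igf1 and Pdgfa overlapped, and these neighbours do not differ beyond their spread.

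Over all 16653 tested genes, edgeR's quasi-likelihood test with Benjamini-Hochberg adjustment called 0.186% at an adjusted p of 0.05, and 1 of the 7 tested growth factors, Btc, was among them. An unadjusted p under 0.05 was reached by 17.1% of genes and by 2 growth factors, Btc and Angpt1. DESeq2 called 5.86% of genes and 1 growth factor, again Btc. No overlap between the subsets was seen in 14.6% of genes and in 3 growth factors, higher in CD48-/lo MkPs for Btc and Angpt1 and lower for Tgfb1. Since the genes were picked with this contrast known, nothing is read from these shares.

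**Figure D1:**
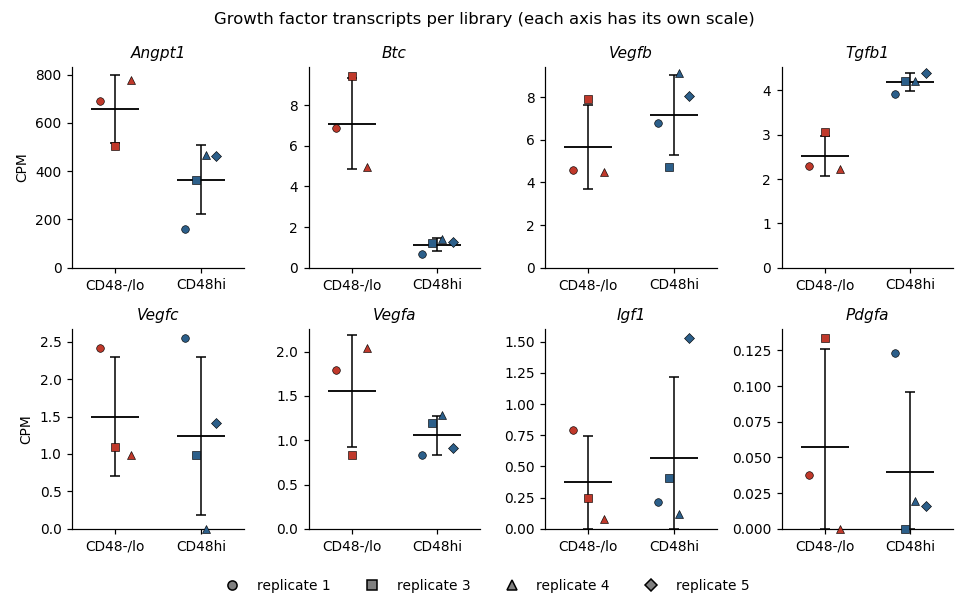
CPM of each of the 8 growth factor genes (vertical axes, linear and from 0, each with its own scale) in 3 CD48-/lo libraries (red, left) and 4 CD48hi libraries (blue, right). Symbols are libraries by replicate number, lines are means and bars the SD, cut at 0. Btc lies between 4.97 and 9.42 CPM in CD48-/lo MkPs and between 0.694 and 1.39 CPM in CD48hi MkPs.

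Btc (ENSMUSG00000082361, mm10 chromosome 5, 91357261 to 91402994, minus strand) encodes betacellulin, made as a membrane-bound precursor and released by proteolysis. It had 364, 494 and 246 counts in CD48-/lo replicates 1, 3 and 4, which is 6.86, 9.42 and 4.97 CPM. In CD48hi replicates 1, 3, 4 and 5 it had 45, 65, 72 and 78 counts, or 0.694, 1.2, 1.39 and 1.27 CPM. Each CD48-/lo library thus lay above each CD48hi library, and CD48-/lo replicate 3 was the highest of all. Means were 7.08 ± 2.23 CPM in CD48-/lo MkPs and 1.14 ± 0.305 CPM in CD48hi MkPs (SD, n = 3 and 4). The fitted log2 difference was 2.64 ± 0.42 (SE), or 6.23-fold. By size it ranked 9 among the 13 genes called higher in CD48-/lo MkPs. The adjusted p behind its call, 0.0473, stood just inside the threshold, and the call was lost when any single library was left out, with adjusted p (edgeR) from 0.0775 to 0.166, while the log2 difference stayed between 2.27 and 2.84. Btc was nonetheless a modest transcript. In CD48-/lo MkPs its mean RPKM of 1.57 was at or above that of 35.8% of tested genes, and in CD48hi MkPs 0.251 RPKM was at or above 13.3%.

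Angpt1 (ENSMUSG00000022309, chromosome 15, 42424723 to 42676977, minus strand) encodes angiopoietin-1, the agonist of the receptor TIE2. It had 690, 505 and 779 CPM in CD48-/lo replicates 1, 3 and 4, against 161, 363, 467 and 463 CPM in CD48hi replicates 1, 3, 4 and 5. The subsets did not overlap, but the lowest CD48-/lo library stood close to the highest CD48hi libraries, and CD48hi replicate 1 was far below the other CD48hi libraries. Means were 658 ± 140 CPM in CD48-/lo MkPs and 364 ± 143 CPM in CD48hi MkPs (SD, n = 3 and 4), with a log2 difference of 0.86 ± 0.37 (SE). The mean RPKM of 126 in CD48-/lo MkPs and 69.9 in CD48hi MkPs was at or above that of 96% of tested genes in CD48-/lo MkPs and 92.5% in CD48hi MkPs. Angpt1 took 92.1% to 96.6% of the summed RPKM of the 8 genes in CD48-/lo libraries and 82.8% to 93.6% in CD48hi libraries. An antisense gene, Gm17473, overlaps Angpt1 and cannot be told apart without strand, but had only 97 to 585 counts in CD48-/lo libraries and 56 to 161 in CD48hi libraries.

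Tgfb1 (ENSMUSG00000002603, chromosome 7, 25687002 to 25705077, plus strand) encodes TGF-beta 1. It had 2.3, 3.05 and 2.22 CPM in CD48-/lo replicates 1, 3 and 4, against 3.92, 4.21, 4.22 and 4.4 CPM in CD48hi replicates 1, 3, 4 and 5. All CD48-/lo libraries lay below all CD48hi libraries, which were close together, with a coefficient of variation of 18.1% in CD48-/lo MkPs and 4.77% in CD48hi MkPs. Means were 2.52 ± 0.458 CPM in CD48-/lo MkPs and 4.19 ± 0.2 CPM in CD48hi MkPs (SD, n = 3 and 4), with a log2 difference of -0.73 ± 0.36 (SE). Tgfb1 was a low transcript here, from 110 to 160 counts in CD48-/lo libraries and from 219 to 271 in CD48hi libraries.

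The level of Btc relative to Tgfb1 differed in order between the subsets. The ratio of Btc to Tgfb1 RPKM was 3.33, 3.44 and 2.49 in CD48-/lo replicates 1, 3 and 4, and 0.198, 0.317, 0.367 and 0.321 in CD48hi replicates 1, 3, 4 and 5. Btc was thus the higher of both in every CD48-/lo library and the lower in every CD48hi library. With Angpt1 set aside, Btc took 24%, 25% and 21.1% of the summed RPKM of the other 7 genes in CD48-/lo replicates 1, 3 and 4, and 2.38%, 5.53%, 4.29% and 3.94% in CD48hi replicates 1, 3, 4 and 5. Vegfb took the largest share in every library, 45.1% to 59.3% in CD48-/lo MkPs and 61.8% to 79.5% in CD48hi MkPs. The sum of these 7 genes overlapped between subsets, from 5.23 to 8.34 RPKM in CD48-/lo libraries and 4.78 to 7.15 RPKM in CD48hi libraries.

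**Figure D2:**
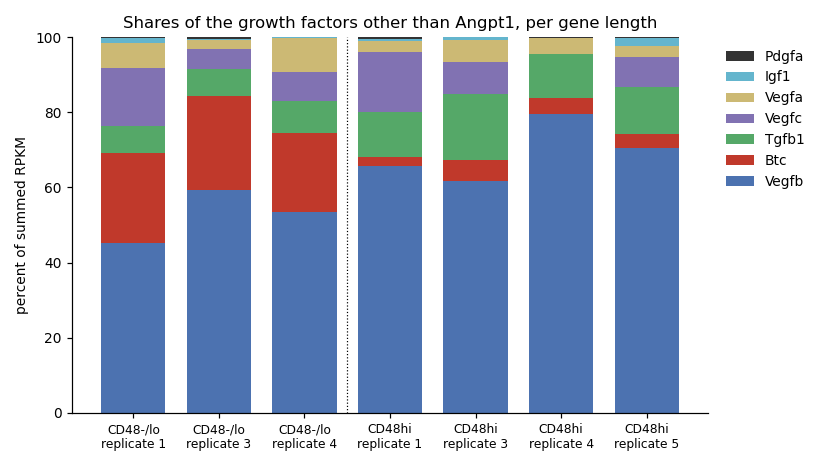
Share of each growth factor gene other than Angpt1 in the summed RPKM of the 7 genes (vertical axis, percent), as stacked bars for 3 CD48-/lo libraries (left of the dotted line) and 4 CD48hi libraries (right). The Btc band (red) spans 21.1% to 25% in CD48-/lo libraries and 2.38% to 5.53% in CD48hi libraries.

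The VEGF genes did not separate the subsets. Vegfa (ENSMUSG00000023951, chromosome 17, 46016993 to 46032369, minus strand) encodes the main ligand of the endothelial receptor KDR and is induced by low oxygen. It had 1.79, 0.839 and 2.04 CPM in CD48-/lo replicates 1, 3 and 4, against 0.833, 1.2, 1.29 and 0.91 CPM in CD48hi replicates 1, 3, 4 and 5. The subsets overlapped because CD48-/lo replicate 3 lay with the lowest CD48hi libraries, while CD48-/lo replicates 1 and 4 were the highest. These are also the libraries with the high mitochondrial shares, whose part was not tested. The log2 difference was 0.56 ± 0.56 (SE).

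Vegfb (ENSMUSG00000024962, chromosome 19, 6982473 to 6987651, minus strand) encodes a ligand of FLT1. It had 4.58, 7.93 and 4.49 CPM in CD48-/lo replicates 1, 3 and 4, against 6.8, 4.74, 9.13 and 8.04 CPM in CD48hi replicates 1, 3, 4 and 5. The subsets overlapped, with a log2 difference of -0.34 ± 0.38 (SE). Within CD48-/lo MkPs, Vegfb and Btc were highest and Vegfa and Angpt1 lowest in replicate 3. Vegfb exceeded Vegfa in RPKM in every library, 5.87 to 25.2 times in CD48-/lo MkPs and 10.6 to 23.6 times in CD48hi MkPs.

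Vegfc (ENSMUSG00000031520, chromosome 8, 54077606 to 54187096, plus strand) encodes the lymphatic growth factor that binds FLT4. It had 128, 57 and 49 counts in CD48-/lo replicates 1, 3 and 4, against 165, 54, 0 and 87 counts in CD48hi replicates 1, 3, 4 and 5. Replicate 1 was highest in both subsets, and the 0 in CD48hi replicate 4 allows up to 0.0578 CPM (3 counts, counting error only). The log2 difference of 0.27 ± 1.11 (SE) turned to -0.40 without CD48-/lo replicate 1 and to -0.14 without CD48hi replicate 4, so that no direction can be read.

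Igf1 and Pdgfa were close to the limit of detection. Igf1 (ENSMUSG00000020053, chromosome 10, 87858265 to 87937042, plus strand) had 42, 13 and 4 counts in CD48-/lo replicates 1, 3 and 4, against 14, 22, 6 and 94 counts in CD48hi replicates 1, 3, 4 and 5. CD48hi replicate 5 held most of the CD48hi counts, and the log2 difference of -0.60 ± 1.08 (SE) became 0.60 without it. Pdgfa (ENSMUSG00000025856, chromosome 5, 138976014 to 138997370, minus strand), which encodes the PDGF A chain, had 2, 7 and 0 counts in CD48-/lo replicates 1, 3 and 4, against 8, 0, 1 and 1 counts in CD48hi replicates 1, 3, 4 and 5. At 9 counts in all CD48-/lo libraries and 10 in all CD48hi libraries it was too low to be tested, and a difference was not detectable at this depth. Antisense genes overlap both loci, Igf1os at Igf1 and 6330403L08Rik at Pdgfa, so that such low counts cannot be assigned to one strand.

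Other ligands of the same families, their receptors and their regulators were examined through 118 genes in 16 lists, of which 94 were in the table and 75 were tested. The rule that chose the 8 growth factors did not use them, but the lists were drawn up with earlier results of these libraries known. edgeR called 0 of the 75, with 10 higher and 7 lower in CD48-/lo MkPs at an unadjusted p under 0.05 (22.7% of the 75, against 17.1% of all genes). DESeq2 called 5 higher and 4 lower, 11.4% of the 79 listed genes it adjusted, against 5.86% of all genes. In 13 of the 75 genes the subsets did not overlap (17.3%, against 14.6%). The median log2 difference was -0.21, beside 0.03 over all tested genes.

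**Figure D3:**
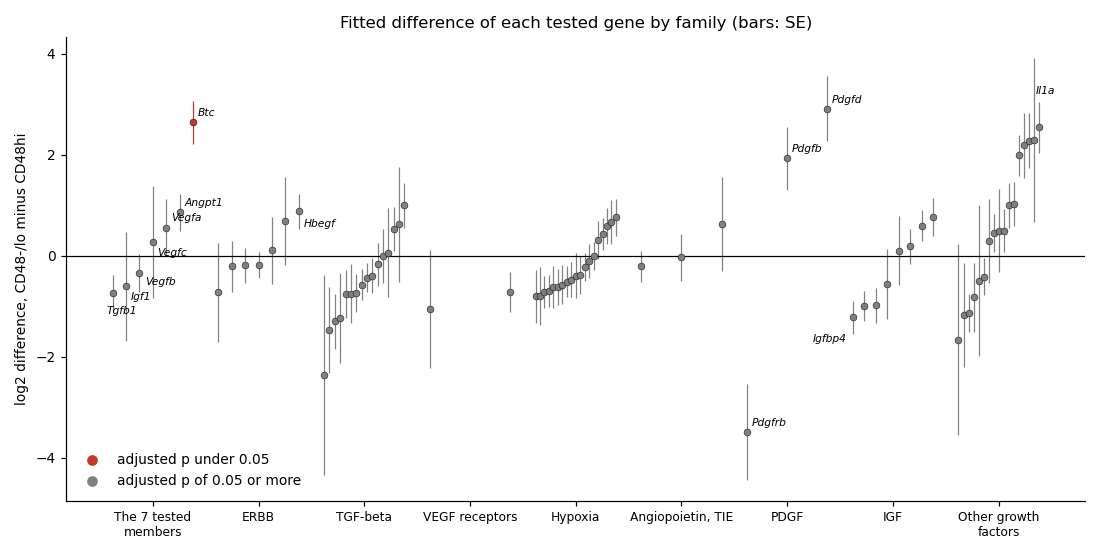
Fitted log2 difference of CD48-/lo minus CD48hi MkPs (vertical axis) for the 7 tested growth factor genes and the 75 tested genes of their families, sorted within each family, with SE bars derived from the F statistic of edgeR. Btc (red) is the gene with an adjusted p under 0.05, and Pdgfd at 2.91 and Pdgfrb at -3.48 are the extremes of the PDGF group.

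Among ligands and receptors of the ERBB family, Hbegf, which encodes heparin-binding EGF-like growth factor, was the most abundant of the other ligands tested. It had 24, 20.6 and 15 CPM in CD48-/lo replicates 1, 3 and 4, against 12.8, 5.96, 12.3 and 12.1 CPM in CD48hi replicates 1, 3, 4 and 5. The subsets did not overlap, in the same direction as Btc, but the log2 difference of 0.88 ± 0.35 (SE) had an adjusted p of 0.257 (edgeR). Per length, Hbegf averaged 4.11 RPKM in CD48-/lo MkPs and 2.23 RPKM in CD48hi MkPs, and it exceeded Btc in both. Of the ERBB receptors that bind or relay these ligands, Erbb3 averaged 6.29 ± 2.73 CPM in CD48-/lo MkPs and 7.26 ± 3.94 CPM in CD48hi MkPs (SD, n = 3 and 4), and Erbb2 had 0 counts in all CD48-/lo libraries and 42 in all CD48hi libraries. Egfr and Erbb4 were not analysed here. The proteases that release EGF family ligands were present at similar means, Adam10 at 500 ± 128 CPM in CD48-/lo MkPs and 571 ± 207 CPM in CD48hi MkPs, and Adam17 at 81 ± 9.96 CPM in CD48-/lo MkPs and 92 ± 16 CPM in CD48hi MkPs (SD, n = 3 and 4).

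The PDGF family held the genes with the largest fitted differences of all these lists. Pdgfd, encoding the PDGF D chain, had 9.72, 3.74 and 20.3 CPM in CD48-/lo replicates 1, 3 and 4, against 0.694, 1.03, 1.37 and 2.91 CPM in CD48hi replicates 1, 3, 4 and 5. The subsets did not overlap, and the CD48-/lo libraries were spread widely. Its log2 difference was 2.91 ± 0.64 (SE), with an adjusted p of 0.102 by edgeR and 0.000739 by DESeq2. Pdgfb, encoding the B chain of platelet PDGF, had 4.82, 7.06 and 12.1 CPM in CD48-/lo replicates 1, 3 and 4, against 3.09, 0.496, 1.31 and 3.44 CPM in CD48hi replicates 1, 3, 4 and 5. It did not overlap either, with a log2 difference of 1.93 ± 0.62 (SE) and an adjusted p of 0.207 by edgeR and 0.0573 by DESeq2. Pdgfrb, encoding a receptor for both chains and also on the list of stromal markers, ran in the other direction, with 0.0565, 0.401 and 1.7 CPM in CD48-/lo replicates 1, 3 and 4, against 2.35, 10, 8.15 and 11.6 CPM in CD48hi replicates 1, 3, 4 and 5. Its log2 difference of -3.48 ± 0.95 (SE) had an adjusted p of 0.169 by edgeR and 0.0014 by DESeq2, and became -5.12 without CD48-/lo replicate 4 (adjusted p 0.18, edgeR). It was called by limma voom, at -4.68 with an adjusted p of 0.0488, and by edgeR with the replicate number as a block (adjusted p 0.0464). Of the PDGF ligands, both Pdgfb and Pdgfd were therefore far above Pdgfa in both subsets, with mean RPKM of 1.92 and 3.57 in CD48-/lo MkPs and 0.501 and 0.476 in CD48hi MkPs, against 0.0183 RPKM for Pdgfa in CD48-/lo MkPs and 0.0127 RPKM in CD48hi MkPs.

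**Figure D4:**
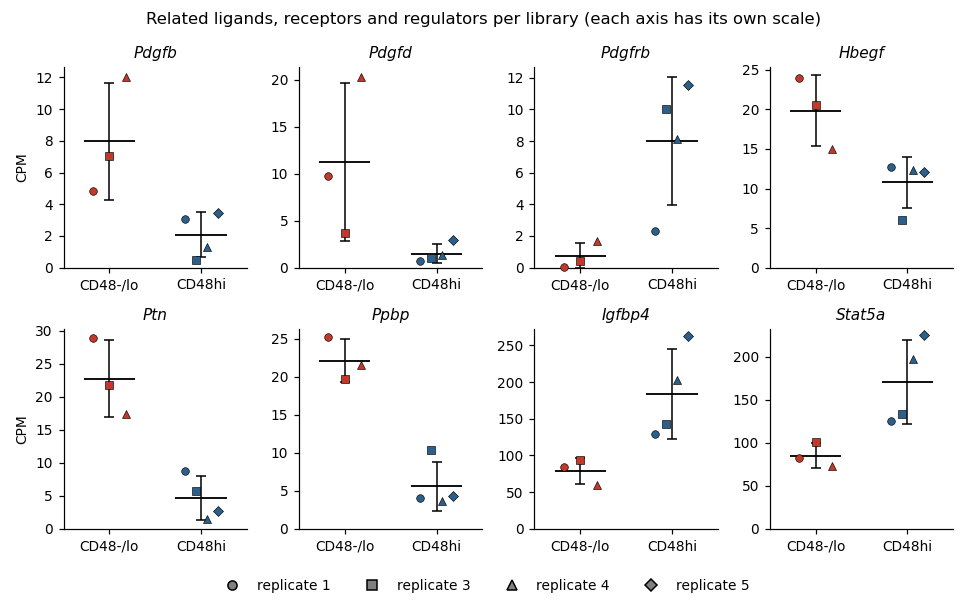
CPM of 8 genes related to the growth factors (vertical axes, linear and from 0, each with its own scale) in 3 CD48-/lo libraries (red, left) and 4 CD48hi libraries (blue, right). Symbols are libraries by replicate number, lines are means and bars the SD, cut at 0. Pdgfd lies between 3.74 and 20.3 CPM in CD48-/lo MkPs and between 0.694 and 2.91 CPM in CD48hi MkPs, and none of the 8 genes was called by edgeR.

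For TGF-beta, edgeR called 0 of 16 tested ligands, latency genes and receptors, and DESeq2 called 0. At an unadjusted p under 0.05, 1 was higher in CD48-/lo MkPs, Itgb6, and 1 lower, Ltbp1, beside 17.1% of all genes. Itgb6, encoding a subunit of an integrin that activates TGF-beta, averaged 5.07 ± 0.974 CPM in CD48-/lo MkPs and 2.53 ± 1.18 CPM in CD48hi MkPs (SD, n = 3 and 4), with an adjusted p of 0.287 (edgeR). Ltbp1, encoding a latent TGF-beta binding protein, averaged 4.64 ± 3.21 CPM in CD48-/lo MkPs and 11.4 ± 5.41 CPM in CD48hi MkPs (SD, n = 3 and 4), with a log2 difference of -1.30 ± 0.54 (SE) and an adjusted p of 0.266 (edgeR). The latency gene with the highest level was Nrros, which anchors latent TGF-beta on myeloid cells, at 246 ± 37.4 CPM in CD48-/lo MkPs and 333 ± 85.3 CPM in CD48hi MkPs (SD, n = 3 and 4). Its CPM was far above that of Tgfb1 in both subsets, as was its RPKM, at 58.9 in CD48-/lo MkPs and 79.6 in CD48hi MkPs. The 4 receptor genes had fitted log2 differences from -0.76 to -0.00, and 1 of them turned above 0 with no scaling factor. Eng, the coreceptor endoglin, averaged 151 ± 23.9 CPM in CD48-/lo MkPs and 225 ± 72.5 CPM in CD48hi MkPs (SD, n = 3 and 4), with an adjusted p of 0.366 (edgeR).

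Receptors for VEGF were sparse apart from Kdr, which averaged 16.1 ± 6.74 CPM in CD48-/lo MkPs and 26.6 ± 9.86 CPM in CD48hi MkPs (SD, n = 3 and 4). The subsets did not overlap for Kdr, lower in CD48-/lo MkPs, but the log2 difference of -0.72 ± 0.40 (SE) had an adjusted p of 0.379 (edgeR). All 6 tested oxygen-sensing genes that control Vegfa had fitted differences below 0 under each of 3 scalings, with a median of -0.66. Yet edgeR and DESeq2 each called 0 of them. Of the 6, 1, the prolyl hydroxylase gene Egln2, had an unadjusted p under 0.05 (edgeR), beside 17.1% of all genes. Hif1a averaged 126 ± 16.5 CPM in CD48-/lo MkPs and 174 ± 74 CPM in CD48hi MkPs (SD, n = 3 and 4). Of 13 tested genes of the hypoxia response other than Vegfa, 5 lay above 0 and 8 below, with a median of -0.10 and 0 called by edgeR or DESeq2 or at an unadjusted p under 0.05. Ldha, the most abundant of them, averaged 1449 ± 68.4 CPM in CD48-/lo MkPs and 856 ± 487 CPM in CD48hi MkPs, where CD48hi replicate 3 lay above every CD48-/lo library.

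Tek, which encodes TIE2, the receptor of Angpt1, had 110, 69.1 and 101 CPM in CD48-/lo replicates 1, 3 and 4, against 39, 61.8, 187 and 94.1 CPM in CD48hi replicates 1, 3, 4 and 5. The CD48hi libraries spanned the CD48-/lo range, with a log2 difference of -0.03 ± 0.47 (SE) and an adjusted p of 0.982 (edgeR), and the sign depended on the scaling. Tie1 averaged 61.3 ± 7.78 CPM in CD48-/lo MkPs and 71.2 ± 20.7 CPM in CD48hi MkPs (SD, n = 3 and 4).

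In the 3 IGF lists edgeR called 0 of 8 tested genes, with 3 lower in CD48-/lo MkPs at an unadjusted p under 0.05. DESeq2 called 2 lower, Igfbp4 and Stat5a. Over all genes these shares were 17.1% at an unadjusted p under 0.05 (edgeR) and 5.86% by DESeq2. Igfbp4, encoding a binding protein that limits IGF action, had 83.8, 93.8 and 59.7 CPM in CD48-/lo replicates 1, 3 and 4, against 130, 142, 202 and 263 CPM in CD48hi replicates 1, 3, 4 and 5. The subsets did not overlap, with a log2 difference of -1.22 ± 0.33 (SE) and an adjusted p of 0.162 by edgeR and 0.00929 by DESeq2. Stat5a, encoding a factor downstream of growth hormone and thrombopoietin receptors, averaged 85.2 ± 14.4 CPM in CD48-/lo MkPs and 171 ± 48.4 CPM in CD48hi MkPs (SD, n = 3 and 4), with an adjusted p of 0.188 by edgeR and 0.0228 by DESeq2. Stat5b averaged 68.3 ± 4.47 CPM in CD48-/lo MkPs and 135 ± 54 CPM in CD48hi MkPs (SD, n = 3 and 4), with an adjusted p of 0.223 by edgeR and 0.0519 by DESeq2. The receptor Igf1r averaged 45 ± 9.51 CPM in CD48-/lo MkPs and 39.5 ± 13.8 CPM in CD48hi MkPs (SD, n = 3 and 4), so the receptor transcript was far above that of the ligand also per length, at 2.68 against 0.0377 RPKM in CD48-/lo MkPs and 2.35 against 0.0571 RPKM in CD48hi MkPs.

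Of 17 tested other growth factors and cytokines known from megakaryocytes, platelets or niche cells, edgeR called 0, although an unadjusted p under 0.05 was reached by 6 with a higher and 1 with a lower level in CD48-/lo MkPs, and DESeq2 called 4 higher and 1 lower. Over all genes these shares were 17.1% at an unadjusted p under 0.05 and 5.86% by DESeq2. Ppbp, encoding the platelet basic protein chemokine, had 25.2, 19.7 and 21.5 CPM in CD48-/lo replicates 1, 3 and 4, against 4.01, 10.4, 3.64 and 4.32 CPM in CD48hi replicates 1, 3, 4 and 5. Il1a, encoding interleukin-1 alpha, had 2.69, 3.97 and 4.85 CPM in the same CD48-/lo libraries, against 0.771, 0.349, 0.597 and 0.91 CPM in the same CD48hi libraries. Both separated the subsets in full, with an adjusted p of 0.089 for Ppbp and 0.0841 for Il1a by edgeR, and of 0.00042 for Ppbp and 0.00023 for Il1a by DESeq2. The heparin-binding factor Ptn showed the same pattern, at 22.8 ± 5.81 CPM in CD48-/lo MkPs and 4.69 ± 3.29 CPM in CD48hi MkPs (SD, n = 3 and 4). Pf4, the abundant platelet chemokine, averaged 2960 ± 1273 CPM in CD48-/lo MkPs and 1478 ± 762 CPM in CD48hi MkPs (SD, n = 3 and 4), with overlap and an adjusted p of 0.292 (edgeR). The remaining genes called by DESeq2 were Spp1, at 1.65 ± 0.545 CPM in CD48-/lo MkPs and 0.359 ± 0.142 CPM in CD48hi MkPs, and Osm, encoding oncostatin M, at 6.33 ± 1.62 CPM in CD48-/lo MkPs and 13.9 ± 4.25 CPM in CD48hi MkPs (SD, n = 3 and 4).

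Genes with a profile most like that of each growth factor were sought among 10268 genes, by the root mean square difference of log2 values centred on each gene's own mean over the 7 libraries, where 0 is identical. For Btc these were Itga8 at 0.31, with 7.85, 5.15 and 4.47 CPM in CD48-/lo replicates 1, 3 and 4 and 0.571 to 1.54 CPM in CD48hi libraries, and Crispld1 at 0.36. For Angpt1 they were Mef2c at 0.13, encoding a transcription factor used in megakaryocytes, and Top2b at 0.15. For Tgfb1 they were Fancg and Lipe, both at 0.10, for Vegfa Dpf2 at 0.05 and Mir142hg at 0.06, and for Vegfb Tmem168 and Pros1, both at 0.10. Vegfc was matched by Tctn1 at 0.26 and Slc39a4 at 0.31, and Igf1 by Zfp946 at 0.09 and Klf8 at 0.22. The nearest gene was most distant for Btc, followed by Vegfc. Pdgfa was nearly flat on this scale because its CPM was far below the added constant of 0.5, so that its nearest genes, Rpa1 and Pttg1ip at 0.06, are those that hardly varied. The constant also damped Igf1, which averaged 0.373 CPM in CD48-/lo MkPs and 0.566 CPM in CD48hi MkPs. To a lesser degree it damped the other growth factors with low CPM. Distances are therefore not comparable between growth factors of different level.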

How the data were processed

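The authors isolated RNA from sorted MkPs, amplified poly(A)-primed cDNA by template switching and sequenced it. Reads were aligned to mm10 with GSNAP, and uniquely aligned reads per gene were counted with featureCounts (2.0.1). The authors deposited whole-number raw counts without normalization for 21615 genes, the lowest summing to 11 counts over the 7 libraries. The sources used here do not give the strand setting of the counting. Other deposited tables were not used.

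The re-analysis used edgeR 4.0.16 (R 4.3.3). After filterByExpr (16653 genes, holding 99.95% of counts) and TMM scaling, CD48-/lo was set against CD48hi by quasi-likelihood F tests without covariates. P-values were adjusted after Benjamini and Hochberg, and 0.05 was the threshold. Log2 differences used a prior count of 0.125. The SE of an edgeR log2 difference was derived as its absolute value divided by the square root of the F statistic. CPM used TMM-scaled totals, and RPKM also the deposited gene length. For likeness, 0.5 CPM was added and a mean log2 CPM of 1 required. DESeq2 1.42.0 and limma 3.58.1 were alternatives. The fit was tested on simulated data. Library pairs correlated across genes (Spearman) at 0.921 to 0.957, and none was treated as a duplicate.

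The 8 growth factors and all lists were chosen with earlier results of these data known. The rule for named genes took the 8 members, called genes of the pathway lists, the smallest 2 adjusted p and the most abundant gene of each list, gate genes, abundant markers and the 2 genes most like each member. Ptn, Spp1, Osm, Erbb2, Erbb3, S100a8, Fcer1a, Emcn and the markers named because edgeR called them, apart from Mpo and Irf8, lay outside it and were picked once their values had been seen. The text prints some of the genes that this rule gives. Protein sequences were not used here. Alternatives were other scalings and filters, the replicate block, omitting mitochondrial, haemoglobin and ribosomal protein genes, and leaving out each library.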

Additional observations from a re-analysis of the deposited data

Results flagged for a closer look

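Pdgfa had 0.123 CPM in CD48hi replicate 1, which comes from 8 counts, while the other CD48hi libraries had 0, 0.0193 and 0.0162 CPM. The overlapping antisense gene 6330403L08Rik had 27 counts in CD48hi replicate 1, 11 in CD48hi replicate 5 and 0 in every other library. Its part in the Pdgfa counts was not tested. The gap between that library and the next, divided by the range of the 4 CD48hi libraries, was 0.844, above Dixon's critical value for 4 samples. Chance alone gives about 1 such gap in 20 groups.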

How the results depend on the processing

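Over all genes, the 31 calls became 10 with no filter on low counts, 65 with at least 1 CPM in 3 libraries, 1028 with DESeq2 and 393 with limma voom and sample quality weights, and 0 to 60 when one library was left out (0 without CD48hi replicate 3, 60 without CD48-/lo replicate 3, and 3, 6, 4, 11 and 3 without CD48hi replicates 1, 4 and 5 and CD48-/lo replicates 1 and 4). RLE scaling gave 34, total counts 30, and omitting mitochondrial, haemoglobin and ribosomal protein genes 34. A fit with no robust estimation, added after seeing the data, gave 32.

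Of the pathway lists, 0 genes were called by edgeR, also without any one library (0 to 0), while DESeq2 called 9 and limma voom 6. Btc was called in 8 of 17 alternatives. Its adjusted p was 0.0775 with no filter and 0.0775 to 0.166 with one library left out, by edgeR, and 8.59e-07 with DESeq2. The log2 difference of Angpt1 ranged from 0.53 to 1.09, of Tgfb1 from -1.02 to -0.65, of Vegfa from 0.31 to 0.74 and of Vegfb from -0.78 to -0.20, and none of these 4 was called in any of the 17.

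With total counts and no scaling factor the pathway lists had 33 genes above and 42 below 0, against 30 above and 45 below with TMM. Of the genes run by name through each alternative, the sign turned for Vegfc, Igf1, Igf1r and Tek. With one library left out, the log2 difference ranged from -0.40 to 0.84 for Vegfc, from -1.87 to 0.60 for Igf1, from -0.09 to 0.33 for Igf1r (-0.00 without CD48-/lo replicate 1) and from -0.37 to 0.52 for Tek (0.06 without CD48-/lo replicate 3). Tek was also 0.06 with total counts and 0.08 with limma voom.

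Deviations of libraries with the same replicate number correlated at -0.18, -0.31 and -0.11, and those with different numbers at -0.13 to 0.23. So few pairs cannot decide whether equal numbers mark paired libraries, and the labels do not say. The replicate block gave 29 calls over all genes and 1 among the pathway lists, Pdgfrb at -3.95 with an adjusted p of 0.0464 (edgeR). With the replicate block Btc had 2.71 and an adjusted p of 0.129, Igf1 0.22 and Tek 0.25. The cause of these differences was not tested.

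Depth limits Pdgfa and Igf1 most, since 3 counts were worth 0.0565 to 0.0607 CPM in CD48-/lo libraries and 0.0463 to 0.0578 CPM in CD48hi libraries. With 3 and 4 libraries, edgeR and DESeq2 differ widely in what they call, and cell number is confounded with subset.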
